A study of Drosophila melanogaster with 12 samples.

Results

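The vacuolar ATPase subunit genes of Drosophila melanogaster were described across organ cultures that received the steroid hormone 20-hydroxyecdysone (20E), the translation inhibitor cycloheximide, both, or neither. Members were the probe sets to which the platform annotation gave exactly 1 gene, with a symbol that starts with Vha. This rule found 32 probe sets of 13966, for 29 genes of the 10843 measured under it, and each gene was followed by its probe set with the highest mean over the 12 arrays. The remaining 3 are second probe sets for Vha16-1, VhaPPA1-1 and VhaSFD.

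Organs dissected from wandering w1118 larvae, with 8 animals to a well, were kept for 1 h in oxygenated medium without hormone and then for 6 h at 25 °C in the treatment medium. The 4 groups were 20E plus cycloheximide (5 µM 20E with 85 µM cycloheximide), 20E alone (5 µM), cycloheximide alone (85 µM) and no hormone, with 3 separately harvested cultures and 1 Affymetrix array for each culture. Blocking translation is meant to separate transcripts that answer to the hormone without new protein from those that need it. The study cautions that cycloheximide by itself can stabilize mRNAs already present, which can hide their induction by 20E. It adds that some 20E-inducible genes reach higher levels when protein synthesis is blocked. All groups, no hormone included, share the genotype, the dissection and the culture.

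The vacuolar ATPase is a rotary pump that uses ATP to move protons across membranes. Its peripheral V1 sector binds and splits ATP, and its membrane-bound V0 sector carries the protons. The pump acidifies lysosomes and endosomes in every cell, and at the apical membrane of insect epithelia, above all the Malpighian tubules, it drives the secretion of potassium and fluid. The fly genome holds several genes for many subunits: 1 of them is as a rule used in most tissues and in epithelia, here called principal, and the additional copies, here called paralogs, are mostly used in a few tissues such as the testis.

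By these roles the 29 genes comprised 12 principal genes, 15 paralogs and 2 genes of accessory proteins. Principal genes of the V1 sector were Vha55 (subunit B, which shares the nucleotide-binding ring with subunit A), Vha36-1 (D, part of the central shaft), Vha14-1 (F, also of the shaft), Vha26 and Vha13 (E and G, the outer stalks), Vha44 (C, which ties the sectors together) and VhaSFD (H, which holds the free V1 sector inactive). Those of the V0 sector were Vha100-2 (a, the path of the protons), Vha16-1 (c, the rotating ring), VhaPPA1-1 (c″, also of the ring), VhaAC39-1 (d, which seats the shaft on the ring) and VhaM9.7-b (e, a small membrane protein). Both genes for the main forms of catalytic subunit A, Vha68-1 and Vha68-2, had no probe set under the rule and were not analysed here, nor were Vha100-3, Vha16-3 and VhaAC45L. VhaM8.9 was measured under its other symbol, ATP6AP2, which the rule does not take.

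The values are intensities as dChip gives them, with no detection calls, and the brightness of a probe set also depends on its probes. Levels of different genes are therefore given as brightness and not ranked as amounts of transcript. The array medians lay between 113.6 and 118.5, and 15.7% to 17.5% of the intensities of an array were under 50. Markers were measured for the midgut (23 of 29 listed genes), the salivary gland (7 of 7) and the fat body (3 of 6). Others were measured for muscle (5 of 8), the nervous system (7 of 8) and the testis (22 of 23). Of these markers only bt (muscle), Syn (nervous system) and can (testis) had a mean intensity under 50. Without detection calls, the presence of their transcripts on an array was not tested. The organs were measured in bulk, so fewer cells of a type and less RNA per cell cannot be told apart. As a check of the hormone, the nuclear receptor gene Eip78C had mean intensities of 161.2 with 20E and 45.31 without hormone (limma log2 fold change 1.78, adjusted p = 0.00169). Of 10 listed 20E early genes 7 were measured, and Eip78C had the largest increase. At a limma adjusted p below 0.1 and 1.3-fold or more, 4 of the 7 were higher and 1 lower with 20E. Over all probe sets it was 1.76% and 0.394%. The log2 fold changes of the 7 genes ran from -0.695 to 1.785.

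Against the median probe set of the array, at an intensity of 116.0, 25 members were as bright or brighter and 4 were dimmer. The dim members were Vha68-3 (subunit A; mean 48.57), Vha36-2 (D; 92.49), Vha14-2 (F; 100.6) and the accessory gene VhaAC45 (104.8). VhaM9.7-c, a paralog of subunit e, lay just inside the limit at 117.3, and VhaAC45 just outside it. The split therefore did not follow the separation into principal genes and paralogs, because 12 of the 15 paralogs were on its bright side. No member intensity was under 10, and 1 member, Vha68-3, had a mean under 50.

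Principal genes had mean intensities between 295.4 (Vha44) and 1763 (Vha16-1), with a median of 541.0, and paralogs between 48.57 (Vha68-3) and 310.4 (Vha16-5), with a median of 144.0. Vha16-5, a further gene for the proteolipid of the c ring, was the sole paralog above the dimmest principal gene. The 2 accessory genes, VhaAC45 and VhaAC45RP, averaged 104.8 and 154.8. Variation over the 12 arrays also differed between the classes as a description. The SD of the log2 intensity had a median of 0.163 over the principal genes and of 0.0873 over the paralogs, beside 0.13 over all probe sets. It was under 0.1 for 8 of the 15 paralogs and for 0 of the 12 principal genes. The paralogs, with their median of 144.0, lay nearer the median probe set at 116.0, and no detection calls were given. Whether background signal lowered their variation and their fold changes was not tested.

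**Figure D1:**
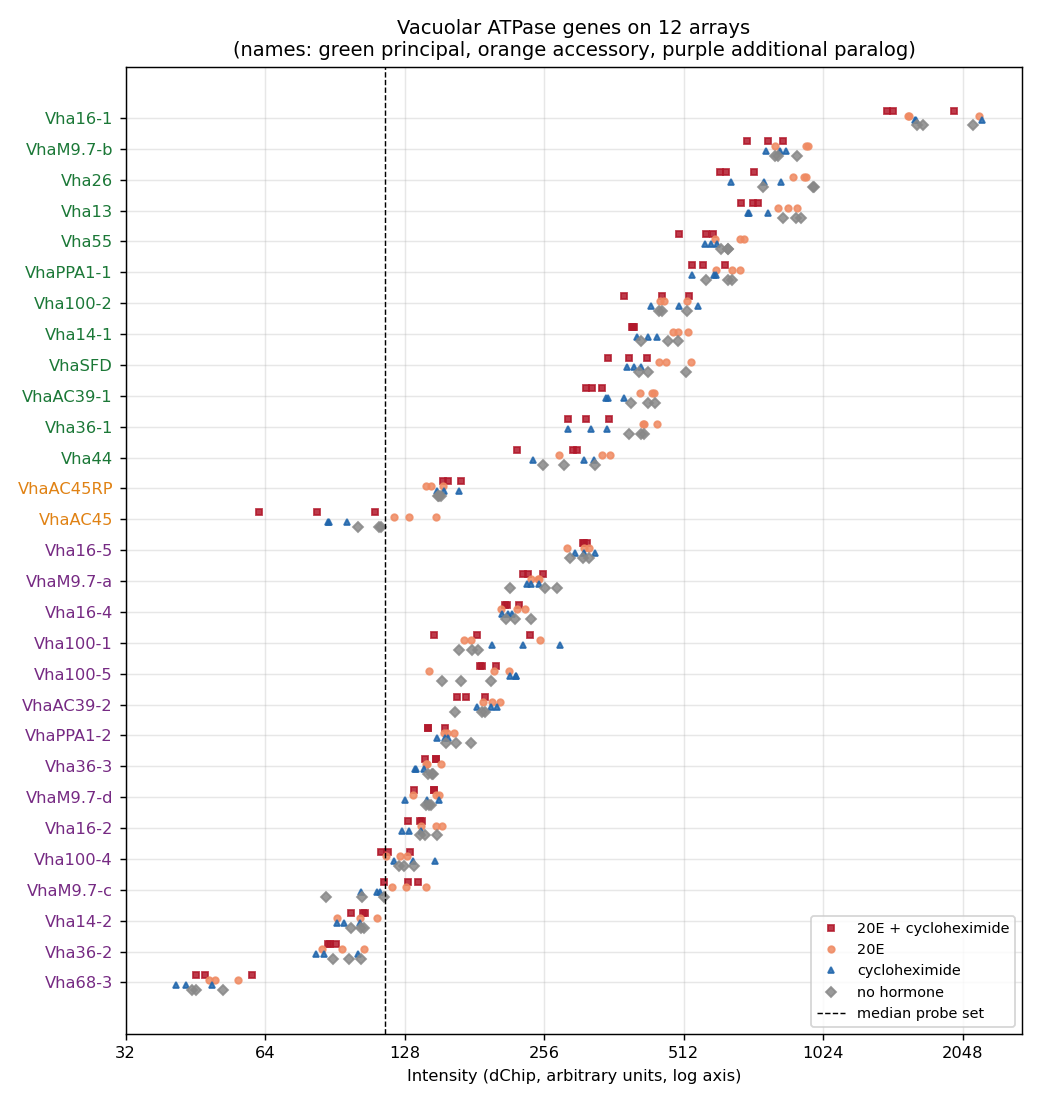
Intensity of each of the 29 Vha genes on each of the 12 arrays (log scale), genes grouped as principal, accessory and paralog and points coloured by treatment. The dashed line marks the median probe set (116.0), and principal genes lie between mean intensities of 295.4 and 1763 and paralogs between 48.57 and 310.4.

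The effect of cycloheximide in the presence of hormone, 20E plus cycloheximide against 20E, gave the only called members of the 4 comparisons of treatments. A member was called where a limma fit of all 13966 probe sets over the 12 arrays gave an adjusted p below 0.1 and the intensities differed 1.3-fold or more. Of the 29 genes, 4 fell and 0 rose, while 1.01% of all probe sets fell and 0.981% rose. The genes that fell were VhaAC39-1, Vha36-1 and Vha26 among the principal genes and the accessory gene VhaAC45. At an unadjusted p under 0.05, 9 of the 29 genes were lower and 0 higher (7.45% and 6.49% of all probe sets), and the 9 were 8 principal genes and VhaAC45. No paralog was called, and none had an unadjusted limma p under 0.05.

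VhaAC39-1, the subunit d that couples the rotating shaft to the ring of V0, had intensities of 325.1, 340.8 and 316.0 with 20E plus cycloheximide, against 437.4, 442.0 and 413.3 with 20E. Every array with both agents was below every array with 20E alone. The means were 327.3 ± 12.6 and 430.9 ± 15.4 (SD, n = 3 each), a decrease of the log2 value by 0.40 ± 0.07 (SE), and the limma adjusted p was 0.016. The change held its adjusted p at 0.0829 or below under all alternatives run, but its size dropped under 1.3-fold with quantile normalization (log2 -0.37), without 20E replicate 2 (-0.38) and without 20E plus cycloheximide replicate 3 (-0.37).

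Vha36-1, subunit D of the central shaft, had 353.9, 315.2 and 288.3 with 20E plus cycloheximide, against 421.0, 449.1 and 418.0 with 20E. The groups did not overlap. The log2 fold change was -0.43 ± 0.09 (SE) and the limma adjusted p 0.0389, on means of 319.1 ± 33.0 and 429.4 ± 17.1 (SD, n = 3 each). The call was lost without 20E replicate 2 (adjusted p = 0.118 by limma), without 20E replicate 3 (0.115) and without 20E plus cycloheximide replicate 3 (0.149), and when the 6 arrays compared were fitted alone (0.137).

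Vha26, subunit E of the outer stalks, had 725.8, 614.3 and 633.5 with 20E plus cycloheximide, against 941.5, 929.5 and 883.1 with 20E. These groups were apart as well, with means of 657.9 ± 59.6 and 918.1 ± 30.8 (SD, n = 3 each). The log2 fold change was -0.48 ± 0.12 (SE) with a limma adjusted p of 0.0763. Leaving out a single array ended the call for 20E replicate 1 (limma adjusted p = 0.16), replicate 2 (0.172) and replicate 3 (0.188) and for 20E plus cycloheximide replicate 2 (0.14) and replicate 3 (0.225), and so did an intensity floor of 50 (0.113) or quantile normalization (0.125).

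VhaAC45, whose protein is a membrane-anchored partner of the V0 sector, had 83.01, 110.7 and 61.99 with 20E plus cycloheximide, against 121.3, 149.8 and 130.7 with 20E. The groups did not overlap, although the arrays with both agents were spread widely. The log2 fold change was -0.69 ± 0.16 (SE), on means of 85.24 ± 24.4 and 134.0 ± 14.5 (SD, n = 3 each), and the limma adjusted p was 0.0686. This probe set was below the median probe set, and its adjusted p by limma was 0.131 with a floor of 50, 0.243 with the 6 arrays alone, and 0.1, 0.196 and 0.197 without 20E replicates 1, 2 and 3. It was 0.147 without 20E plus cycloheximide replicate 1 and 0.168 without replicate 3.

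**Figure D2:**
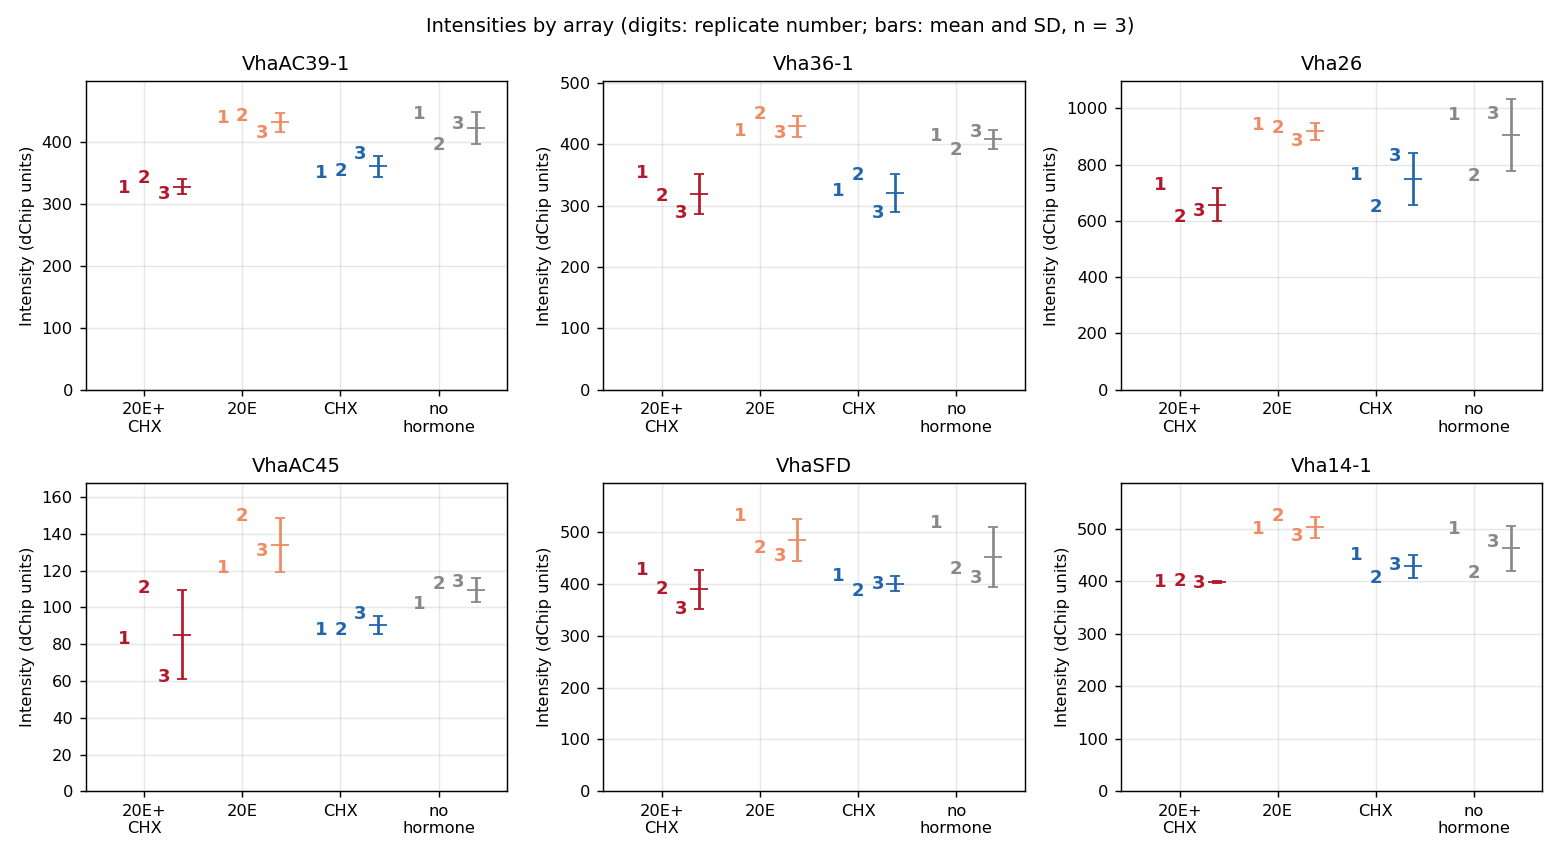
Intensity on each array (linear scale from 0, digits are replicate numbers) by treatment group, CHX standing for cycloheximide, with the mean and SD of 3 arrays beside them, for the 4 genes called between 20E plus cycloheximide and 20E and for VhaSFD and Vha14-1. In each panel the 3 arrays with 20E plus cycloheximide lie below the 3 with 20E, for VhaAC39-1 at 316.0 to 340.8 against 413.3 to 442.0.

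A further principal gene, Vha14-1 (subunit F), passed the adjusted p without reaching 1.3-fold. Its intensities were 398.9, 400.9 and 396.6 with 20E plus cycloheximide, against 498.7, 524.3 and 485.2 with 20E. The log2 fold change was -0.33 ± 0.08 (SE) with a limma adjusted p of 0.0579. With no fold limit, 5 of the 29 genes were lower and 1.43% of all probe sets. VhaSFD, which encodes subunit H, was measured by both of its probe sets. Its brighter probe set had a log2 fold change of -0.31 ± 0.10 (SE; limma adjusted p = 0.175), and the second had 282.8, 302.7 and 275.3 with 20E plus cycloheximide, against 359.1, 379.2 and 354.4 with 20E. For that second probe set the change was -0.34 ± 0.07 (SE; limma adjusted p = 0.0281), again under 1.3-fold.

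The remaining principal genes were not called in this comparison. Their log2 fold changes were -0.26 for Vha13 (limma adjusted p = 0.11), -0.24 for Vha55 (0.184), -0.25 for Vha44 (0.531), -0.22 for VhaM9.7-b (0.306), -0.16 for VhaPPA1-1 (0.447), -0.15 for Vha16-1 (0.802) and -0.09 for Vha100-2 (0.822). All 12 principal genes thus had values below 0, in a range from -0.48 to -0.09 with a median of -0.26, while 51.7% of all probe sets were below 0 and their median was -0.01. The median of the principal genes was -0.31 in V1 (7 genes, of which 2 were called) and -0.16 in V0 (5 genes, 1 called). The 15 paralogs, whose probe sets were mostly dimmer, had a median of -0.03 in a range from -0.16 to 0.06. Over the 1985 probe sets at least as bright as Vha44 the median was -0.04 and 1179 were below 0, with 48 called lower and 50 called higher. At an unadjusted limma p under 0.05, 249 of these 1985 were lower and 145 higher. Without overlap of the arrays, 303 of them were lower and 177 higher. The median of the principal genes lay between -0.33 and -0.23 under all alternatives run, with 11 of 12 below 0 without 20E replicate 3 or without 20E plus cycloheximide replicate 3 and 12 of 12 otherwise.

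Counted without a model, 8 of the 29 genes had all arrays with both agents below all arrays with 20E, beside 9.32% of all probe sets. They were Vha55, Vha36-1, Vha14-1, Vha26, Vha13, VhaSFD, VhaAC39-1 and VhaAC45. In the opposite direction it was 1 gene, VhaAC45RP, an accessory gene related to VhaAC45 (8.64% of all probe sets). VhaAC45RP had 155.2, 158.7 and 169.1 with both agents, against 155.2, 142.6 and 145.8 with 20E, where the lowest value of the first group exceeded the highest of the second only in digits not shown, and its limma adjusted p was 0.431.

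**Figure D3:**
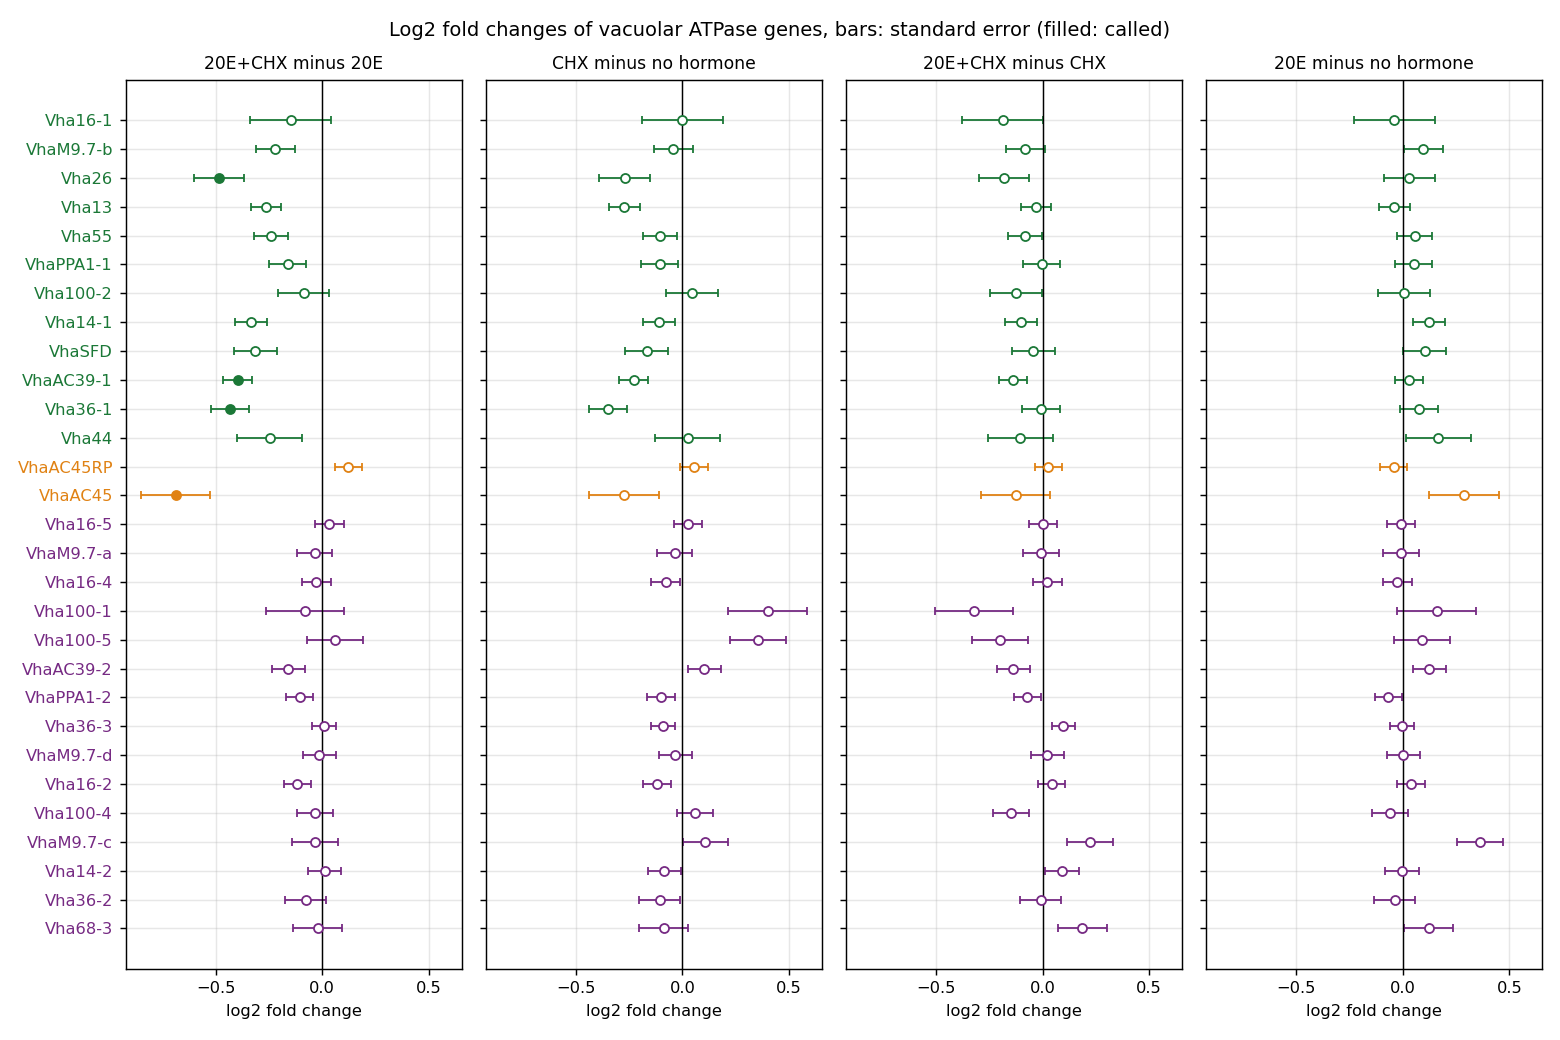
Log2 fold change of each Vha gene in the 4 comparisons of treatments, with standard errors from the limma fit, filled points for called genes and CHX standing for cycloheximide. Between 20E plus cycloheximide and 20E all 12 principal genes lie below 0 (median -0.26), while the 15 paralogs lie between -0.16 and 0.06.

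Markers of the Malpighian tubule, the organ richest in this pump, were summed on each array. Of 5 listed tubule markers 3 were measured, and their summed intensity was 368.8 to 419.3 with 20E plus cycloheximide, 428.6 to 454.3 with 20E, 379.7 to 402.3 with cycloheximide and 409.3 to 423.4 without hormone. The sums with both agents were below those with 20E on all arrays, and the sums with cycloheximide below those without hormone. Taken singly, 1 of the 3 markers was lower without overlap in each of these comparisons, where 9.32% and 15.0% of all probe sets were. The median log2 fold change of the 3 markers was -0.20 between 20E plus cycloheximide and 20E and -0.12 between cycloheximide and no hormone, with 0 called by limma in either comparison (1 of the 3 at an unadjusted p under 0.05 in the first and 0 in the second, with a lowest adjusted p of 0.212 and 0.33). None of the 3 had a mean under 50. Their part in the lower values of the principal genes was not tested. Summed testis markers, which bear on the paralogs, overlapped between the groups, at 4889 to 8292 with both agents, 5882 to 8094 with 20E, 4966 to 7793 with cycloheximide and 4740 to 6730 without hormone.

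Without hormone, cycloheximide gave no called member. Against no hormone, 0 of the 29 genes fell and 0 rose by the limma call, where 0.866% of all probe sets fell and 3.55% rose. At an unadjusted p under 0.05, 4 genes were lower and 1 higher. The 4 were principal genes, and at that p 11.0% of all probe sets were lower and 10.1% higher.

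With no fold limit, 3 principal genes were lower, beside 2.84% of all probe sets. Vha36-1 had 323.1, 349.7 and 288.5 with cycloheximide, against 413.4, 389.9 and 420.1 without hormone (log2 -0.35 ± 0.09 SE, limma adjusted p = 0.0496). Vha13, subunit G of the outer stalks, had 709.9, 780.2 and 706.4 with cycloheximide, against 894.1, 839.5 and 918.5 without hormone (log2 -0.27 ± 0.07 SE, limma adjusted p = 0.0574). VhaAC39-1 had 348.7, 352.4 and 380.1 with cycloheximide, against 444.3, 393.9 and 428.6 without hormone (log2 -0.23 ± 0.07 SE, limma adjusted p = 0.0841). In all 3 genes the groups did not overlap, and none of the changes reached 1.3-fold. Vha36-1 reached the call with quantile normalization, and also when replicate 2 of either group was left out, where 1 of the 29 genes was called.

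The class medians were also set side by side without the hormone. The 12 principal genes had a median log2 fold change of -0.11 between cycloheximide and no hormone, with 10 below 0, the 15 paralogs one of -0.04, and all probe sets one of -0.03, with 58.6% below 0. The median of the principal genes was -0.19 with quantile normalization, with 12 of 12 below 0, and -0.17 without no hormone replicate 2. Vha26 had -0.27 ± 0.12 (SE; limma adjusted p = 0.214), and the exceptions among the principal genes were Vha100-2 at 0.05 and Vha44 at 0.02. This comparison shares no array with that of 20E plus cycloheximide and 20E. The genes whose groups did not overlap in both were Vha36-1, Vha13, VhaAC39-1, Vha55 and VhaAC45, each lower with cycloheximide, which makes 5 of the 29 genes, beside 1.74% of all probe sets.

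Arrays with cycloheximide did not overlap those without hormone for 6 genes in the lower direction (15.0% of all probe sets) and 2 in the higher direction (12.1%). The lower ones were Vha55, Vha36-1, Vha13, VhaAC39-1, VhaAC45 and the paralog Vha36-3. The higher ones were both paralogs for subunit a, the membrane protein that forms the proton path and directs the pump to its membrane. Vha100-1, the form used in neurons, had 277.5, 231.0 and 197.2 with cycloheximide, against 184.3, 178.7 and 167.4 without hormone (log2 0.40 ± 0.18 SE, limma adjusted p = 0.239). Vha100-5 had 222.2, 222.4 and 216.4 with cycloheximide, against 153.8, 169.3 and 197.0 without hormone (log2 0.35 ± 0.13 SE, limma adjusted p = 0.156).

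The second probe sets of 2 principal V0 genes were dim and behaved unlike the bright ones. That of VhaPPA1-1 had 50.31, 83.21 and 67.33 with cycloheximide, against 84.08, 102.2 and 89.34 without hormone (log2 -0.48 ± 0.15 SE, limma adjusted p = 0.107), while the bright one had -0.11 (0.514). That of Vha16-1 had 31.20, 50.50 and 40.70 with cycloheximide, against 46.90, 60.45 and 83.90 without hormone (log2 -0.63 ± 0.27 SE, limma adjusted p = 0.213), while the bright one had a value of 0.00 to 2 decimals (0.999). With the replicate number as a block, which pairs the cultures of these groups, both dim probe sets were called, at adjusted p of 0.0453 and 0.0475 by limma. With this block 1.17% of all probe sets fell, beside 0.866% without it. Which of the probe sets follows the transcripts of these genes was not tested.

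The hormone itself gave no called member among the brightest probe sets of the genes. Between 20E and no hormone, 0 of the 29 genes rose and 0 fell by the limma call, beside 1.76% and 0.394% of all probe sets. At an unadjusted p under 0.05, 1 gene was higher and 0 were lower (8.89% and 6.06% of all probe sets). The principal genes had log2 fold changes between -0.04 and 0.17 with a median of 0.05, and their 95% intervals lay within -27.0% and 41.8%, as a percent change of a single gene. Their median turned to -0.04 with quantile normalization, with 8 of 12 below 0 in place of 2 (51.9% of all probe sets without it). It lay between 0.02 and 0.10 without single arrays, with 6 of 12 below 0 without no hormone replicate 2 (0.02), 0.03 without 20E replicate 1 and 0.10 without 20E replicate 3. The paralogs had a median of 0.00 and all probe sets one of -0.01. Over the 1985 probe sets at least as bright as Vha44 the median was 0.047, near that of the principal genes, and 1213 were above 0.

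The dim second probe sets of 2 principal V0 genes had lower values with the hormone. That of Vha16-1 had 28.68, 33.71 and 52.51 with 20E, against 46.90, 60.45 and 83.90 without hormone (log2 -0.74 ± 0.27 SE, unadjusted p = 0.0191 and adjusted p = 0.236 by limma), and the groups overlapped. That of VhaPPA1-1 had 61.61, 70.16 and 77.95 with 20E, against 84.08, 102.2 and 89.34 without hormone (log2 -0.40 ± 0.15 SE, unadjusted p = 0.0243 and adjusted p = 0.258 by limma), and the groups did not overlap. Between 20E plus cycloheximide and 20E their log2 fold changes were 0.42 and 0.17 (limma adjusted p = 0.547 and 0.704), opposite in sign to those of the bright probe sets of these genes.

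The gene with the lowest p was VhaM9.7-c, a paralog for the small subunit e that lay near the median probe set. It had 128.9, 142.3 and 120.5 with 20E, against 115.7, 103.8 and 86.52 without hormone, and the groups did not overlap. The log2 fold change was 0.36 ± 0.11 (SE) with a limma adjusted p of 0.143, and the gene was called only without no hormone replicate 1. The replicate number as a block gave it a limma adjusted p of 0.0321, at a change still under 1.3-fold. With cycloheximide present on both sides the arrays did not overlap either, at 130.2, 136.8 and 115.6 with 20E plus cycloheximide, against 111.7, 113.1 and 102.9 with cycloheximide (log2 0.22 ± 0.11 SE, limma adjusted p = 0.521). VhaAC45 was the other gene whose arrays with 20E lay above all those without hormone, at 121.3 to 149.8 against 101.8 to 113.8 (log2 0.29 ± 0.16 SE, limma adjusted p = 0.445). The count of such genes was 2 higher and 0 lower, beside 10.6% and 10.1% of all probe sets.

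The hormone was also compared in the presence of cycloheximide. Between 20E plus cycloheximide and cycloheximide, 0 of the 29 genes rose and 0 fell by the limma call, beside 0.68% and 0.573% of all probe sets, and 0 reached an unadjusted p under 0.05 in either direction (5.65% higher and 4.57% lower of all probe sets). All 12 principal genes had log2 fold changes below 0, from -0.19 to 0.00 with a median of -0.09, where 43.4% of all probe sets were below 0. Of the 1985 probe sets at least as bright as Vha44, 1066 were below 0, with a median of -0.012. That all 12 principal genes were below 0 rested on the third array of the group with both agents. Without 20E plus cycloheximide replicate 3 the median of these 12 genes was -0.01, with 7 of 12 below 0. Without cycloheximide replicate 1 it was -0.05, with 10 of 12 below 0, and with quantile normalization 9 of 12 were below 0. The lowest adjusted p was 0.521, and 3 genes were lower without overlap (Vha14-1, VhaAC39-1 and Vha100-5; 6.09% of all probe sets) and 2 higher (Vha36-3 and VhaM9.7-c; 7.78%).

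Whether cycloheximide acted differently with and without the hormone was tested by the interaction of both agents. No member was called by limma (0.136% of all probe sets were), and 1 had an unadjusted p under 0.05 (14.7% of all probe sets), the paralog VhaAC39-2 for subunit d (log2 -0.26 ± 0.11 SE, limma adjusted p = 0.307). For no single principal gene was the lower value with 20E plus cycloheximide therefore shown to differ from that with cycloheximide alone. As a class, 11 of the 12 principal genes had an interaction below 0, with a median log2 of -0.147, beside 0.015 over all probe sets. Quantile normalization gave 8 of 12 below 0 and a median of -0.032. Of the 1985 probe sets at least as bright as Vha44, 1274 were below 0, with a median of -0.076. The class as a whole was not tested. The interaction was -0.08 ± 0.13 (SE) for Vha36-1, -0.17 ± 0.09 for VhaAC39-1, -0.21 ± 0.17 for Vha26 and -0.41 ± 0.23 for VhaAC45, each smaller than the change between 20E plus cycloheximide and 20E.

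Set against the mean of the 12 arrays, the principal genes lay below it on every array with cycloheximide, as medians over the 12 genes. These medians were -0.09, -0.12 and -0.28 with 20E plus cycloheximide, 0.19, 0.17 and 0.10 with 20E, -0.05, -0.10 and -0.08 with cycloheximide and 0.16, -0.04 and 0.10 without hormone, all as log2 deviations. The lowest array was 20E plus cycloheximide replicate 3, and no hormone replicate 2 was the only array without cycloheximide below 0. The medians over the 15 paralogs stayed between -0.06 and 0.04 on all arrays.

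Some members followed the replicate number more than the treatment. Vha16-1, the brightest member, was highest in replicate 3 of all 4 groups, which held for 2.47% of all probe sets. It had 1408, 1453 and 1966 with 20E plus cycloheximide, 1561, 1573 and 2227 with 20E, 1622, 1617 and 2257 with cycloheximide and 1686, 1632 and 2157 without hormone. The gap between replicate 3 and the other cultures was larger than any gap between the group means, which were 1609, 1787, 1832 and 1825.

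Vha44, the clamp subunit C, went the other way, with replicate 1 highest and replicate 3 lowest in all groups. Its intensities were 302.0, 296.2 and 224.1 with 20E plus cycloheximide, 355.2, 342.1 and 275.7 with 20E, 328.3, 312.6 and 242.3 with cycloheximide and 329.1, 282.0 and 254.9 without hormone. Replicate 3 was likewise lowest in all groups for Vha100-1, VhaM9.7-b and VhaM9.7-c (4.97% of all probe sets), and replicate 1 highest for Vha100-2 and VhaSFD (3.42%). The labels do not say what cultures of the same number share.

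**Figure D4:**
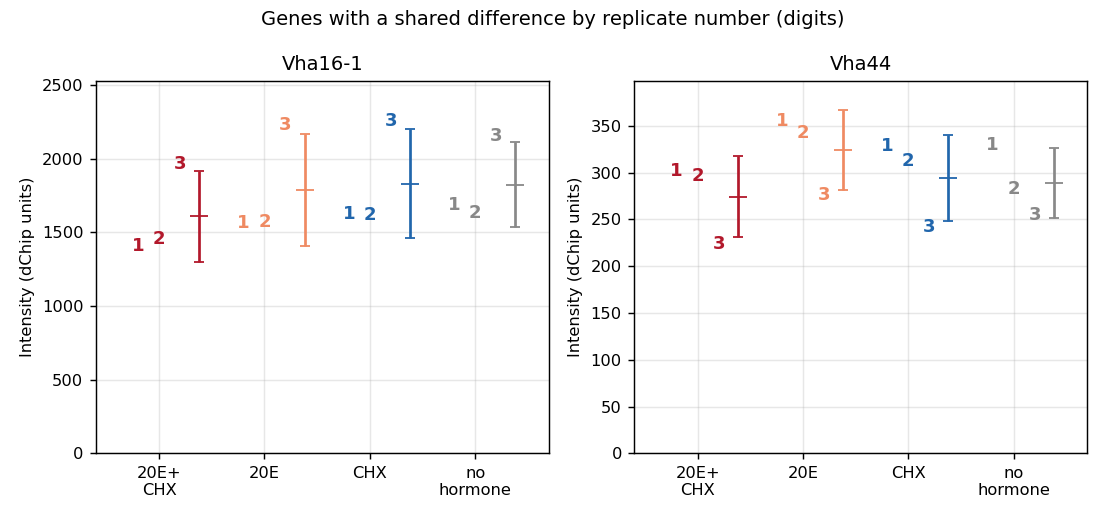
Intensity of Vha16-1 and Vha44 on each array (linear scale from 0), by treatment group, with the replicate number as the marker and the mean and SD of 3 arrays beside it. Replicate 3 is the highest array of every group for Vha16-1 (1966 to 2257) and the lowest for Vha44 (224.1 to 275.7).

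Genes that assemble or regulate the pump, from a list of 17 of which 10 were measured, had 0 called by limma in each comparison. Between 20E plus cycloheximide and 20E, 2 of the 10 were lower at an unadjusted p under 0.05 (7.45% of all probe sets), and their median log2 fold change was -0.09. ATP6AP2, the accessory protein also named VhaM8.9, averaged 563.7 with 20E plus cycloheximide and 641.6 with 20E (log2 -0.19 ± 0.09 SE, limma adjusted p = 0.382). Rbcn-3B, part of the complex that joins V1 to V0, averaged 127.1 and 137.6 in the same groups (log2 -0.12 ± 0.08 SE, limma adjusted p = 0.54).

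Of 24 lysosomal genes listed, 18 were measured, and 1 fell between 20E plus cycloheximide and 20E, where 1.01% of all probe sets did. It was Npc2a, a carrier of sterols out of the lysosome, with means of 585.4 with both agents and 863.8 with 20E (log2 -0.54 ± 0.14 SE, limma adjusted p = 0.0941). The median of the 18 genes was -0.09, beside -0.26 for the principal Vha genes. Of 17 listed genes of the mitochondrial ATP synthase, a rotary enzyme of related build, 16 were measured with a median of -0.08. ATPsynbeta, 1 of the 16, fell between 20E plus cycloheximide and 20E, beside the same 1.01% (39.40 against 55.37, log2 -0.49, limma adjusted p = 0.0343), from a dim probe set.

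Ion transporters and carbonic anhydrases that work beside the pump in epithelia made up a list of 20, of which 18 were measured. Cycloheximide alone called 1 of the 18 lower and 2 higher against no hormone (0.866% and 3.55% of all probe sets), 20E plus cycloheximide called 2 lower against 20E (1.01%), and it called 1 lower against cycloheximide (0.573%). CAH2, a carbonic anhydrase, fell with cycloheximide on both backgrounds. Its means were 764.9 with cycloheximide and 1424 without hormone (log2 -0.88 ± 0.19 SE, limma adjusted p = 0.0236), and 664.9 with 20E plus cycloheximide and 1219 with 20E (-0.84 ± 0.19, 0.0547). Its relative CAH1 rose with cycloheximide alone, with means of 1360.0 and 778.0 without hormone (log2 0.80 ± 0.15 SE, limma adjusted p = 0.0119), as did the potassium channel gene Irk1 (429.5 and 307.7, log2 0.48, adjusted p = 0.027). CAH1 fell between 20E plus cycloheximide and cycloheximide (827.8 and 1360.0, log2 -0.72, limma adjusted p = 0.0437). nrv1, a subunit of the sodium pump, fell between 20E plus cycloheximide and 20E (223.7 and 296.0, log2 -0.40, limma adjusted p = 0.0798). The rest of the measured genes of the list were not called in any comparison.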

How the data were processed

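The authors hybridized each culture's RNA to an Affymetrix Drosophila Genome Array and normalized the arrays with dChip. The deposited values are linear intensities, 1 for each of 13966 probe sets and 12 arrays, with no detection calls, so the number of arrays limits the precision. Pairs of replicates held 2 to 8 identical intensities and were treated as separate samples. P-values set a difference between groups against the spread between separately harvested cultures of a group. That spread was pooled over the 4 groups and moderated towards that of probe sets of like intensity.

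A floor of 10 was applied to the intensities before their log2 was taken. All 4 groups of 3 arrays entered a single model in limma 3.58.1 (R 4.3.3; eBayes, trend = TRUE). Tests were two-sided, and the Benjamini-Hochberg adjustment covered every probe set. Calls needed an adjusted p under 0.1 and, apart from the interaction, 1.3-fold, as in the study's methods. SAM, the methods' test, was not run. The code was tested on simulated data. Tables and figures were made with pandas 2.3.3 and matplotlib 3.10.9 in Python 3.11.15.

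Gene names came from the platform annotation, where 12442 probe sets had exactly 1 gene. Array values are given by rule for every called member, for members whose groups did not overlap at 1.3-fold or more, and for the largest changes of a comparison. Other members with array values were chosen after their values were seen. The classes, the members and the gene lists were chosen with earlier results of these data known, and genes outside the family were named where they were called or belong to the pump. The alternatives were floors of 1 and 50, an added 16, quantile normalization, median centring, no intensity trend, leaving out the dimmest probe sets, a stricter adjusted p, no fold limit, the 6 arrays of a comparison alone, the replicate number as a block, and leaving out each array. Cultures of the same number deviated together from their group means between cycloheximide and no hormone, with correlations of 0.414, 0.211 and 0.294 across probe sets, so the block pairs them there. Such correlations were 0.388, 0.551 and 0.089 between 20E plus cycloheximide and 20E, and -0.028, 0.11 and 0.356 between 20E and no hormone. Between 20E plus cycloheximide and cycloheximide the values were 0.026, -0.122 and 0.269. In these other comparisons not every such correlation was above 0.1.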

Additional observations from a re-analysis of the deposited data

How the results depend on the processing

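The count of 4 genes called between 20E plus cycloheximide and 20E became 2 with a floor of 50, with quantile normalization, at an adjusted p under 0.05 and with the 6 arrays fitted alone. It ranged from 0 to 4 when single arrays were left out, with 0 without 20E replicate 2 (0.43% of all probe sets then fell) and without 20E plus cycloheximide replicate 3 (0.236%), 1 without 20E replicate 3 and 2 without 20E replicate 1. Between cycloheximide and no hormone the count of 0 became 1 with quantile normalization and 3 with no fold limit, and ranged from 0 to 1 without single arrays. Between 20E and no hormone it ranged from 0 to 1, with 1 higher without no hormone replicate 1 (1.98% of all probe sets rose). Between 20E plus cycloheximide and cycloheximide, and for the interaction, it stayed at 0. The causes were not tested.

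The median log2 fold change of the 25 members at or above the median probe set was -0.12 between 20E plus cycloheximide and 20E (-0.26 for the principal genes alone; -0.15 to -0.09 without single arrays). It was -0.07 between 20E plus cycloheximide and cycloheximide (-0.11 to -0.009). It was -0.042 between cycloheximide and no hormone (-0.09 with quantile normalization, -0.08 over members at a mean of 50 or more, -0.11 for the principal genes alone, -0.081 to -0.031 without single arrays). It was 0.031 between 20E and no hormone (-0.041 with quantile normalization, 0.012 to 0.068 without single arrays).

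With the replicate block the counts stayed at 4 between 20E plus cycloheximide and 20E and at 0 in the other comparisons. More of all probe sets were called with the block. Between 20E plus cycloheximide and 20E 1.53% fell (1.01% without the block). Between cycloheximide and no hormone 1.17% fell (0.866%) and 4.18% rose (3.55%). Between 20E and no hormone 0.68% fell (0.394%) and 2.51% rose (1.76%). Between 20E plus cycloheximide and cycloheximide 1.01% fell (0.573%) and 0.931% rose (0.68%). The 4 genes had limma adjusted p of 0.0205 for VhaAC39-1, 0.0289 for Vha36-1, 0.0301 for Vha26 and 0.0482 for VhaAC45. Vha14-1 and VhaSFD then had 0.0433 and 0.0348. The block changed the calls of the second probe sets of VhaPPA1-1 and Vha16-1 and of no other member between cycloheximide and no hormone. Between 20E and no hormone, the deviations of cultures of the same number correlated at -0.028, 0.11 and 0.356. There the block called the second probe set of Vha16-1 (limma adjusted p = 0.0446) and left that of VhaPPA1-1 at 0.135.

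Of the 4 genes, Vha26 and VhaAC45 had the highest adjusted p, and VhaAC45 was dim. Dim probe sets lie nearer the background of the array, and hybridization of paralogs to each other's probes was not tested.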

Other observations

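A few genes of the family lie side by side in the genome, by the order of genes in the RefSeq annotation (Release 6 plus ISO1 MT). Vha100-4 and Vha100-2, both for subunit a, have 0 genes between them, and VhaPPA1-2 and VhaPPA1-1, both for subunit c″, have 1. Between 20E plus cycloheximide and 20E, the log2 fold change was -0.03 for Vha100-4 and -0.09 for Vha100-2, and -0.11 for VhaPPA1-2 and -0.16 for VhaPPA1-1, none called by limma. VhaPPA1-2 was 143.8, 156.2 and 143.5 with both agents, against 156.0, 157.8 and 163.3 with 20E.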
